A study of Mus musculus with 12 samples.

Results

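The genes described here are 10 endoplasmic reticulum (ER) chaperones and ER stress genes, *Hspa5*, *Hsp90b1*, *Hyou1*, *Calr*, *Pdia4*, *Sdf2l1*, *Dnajb9*, *Herpud1*, *Creld2* and *Xbp1*, of 45792 genes in the deposited tables. They were chosen by name, matched by symbol and joined to the counts by Ensembl identifier, and all 10 passed the filter on low counts, as did 15706 genes in all. Proteins bound for the membrane or for secretion fold in the ER lumen, where chaperones hold unfinished chains, disulfide isomerases pair cysteines and a degradation route removes chains that fail. When unfolded protein builds up, the sensors ATF6, IRE1 (*Ern1*) and PERK (*Eif2ak3*) start the unfolded protein response, which raises transcription of most of these 10 genes. Neural stem cells (NSCs) secrete growth factors and matrix proteins through this route.

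RNA was taken from cultures of neonatal mouse forebrain NSCs grown in serum-free DMEM/F12 with EGF, FGF, insulin, transferrin, selenite and B-27, with 1 library per culture and 4 libraries in each of 3 groups. WT cultures were untreated. The other 8 cultures came from *Ncf1*-/- pups, which lack a subunit of the NADPH oxidase complex, and received either no Igfbp2 (called vehicle here, as the study does) or mouse recombinant Igfbp2, an insulin-like growth factor binding protein, at 100 ng/ml per the labels (the methods of the study give a lower dose). Igfbp2 was added 48 h after plating and RNA was collected 48 h later. The study grew the cells of each pup separately and describes the vehicle and Igfbp2 cultures as pairs from the same *Ncf1*-/- pups.

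Facts of the libraries that touch these genes come first. Between 18201622 and 34086554 expected counts were assigned per library. *Ncf1* itself was near 0 in all groups (0.0910 to 0.223 CPM in WT and 0.0478 to 0.194 CPM in *Ncf1*-/-, with 1 to 7 counts per library) and could not check the genotype. Summed CPM of 4 Y-linked genes was 105 to 116 in all vehicle libraries but 7.80 to 9.18 in all Igfbp2 libraries, which goes against pairs from the same animals, so that Igfbp2 and the sex of the cultures cannot be told apart. In WT this sum was 107 to 118 in replicates 9, 10 and 11 and 6.46 in replicate 12, which an alternative sample sheet among the files of the study lists as apocynin-treated. All 10 NSC markers were detected in all 12 libraries, and 3 were called higher and 6 lower in vehicle than in WT. Oligodendrocyte markers (10 genes) summed to 1657 to 9693 CPM in WT and to 217 to 301 CPM in *Ncf1*-/- libraries, 9 of the 10 were called lower in vehicle than in WT, and WT replicate 11 had the lowest WT sum. Astrocyte markers (6 genes, 5 tested) summed to 5317 to 10660 CPM in WT against 1952 to 2946 CPM in *Ncf1*-/-, with 4 of 5 called lower in vehicle than in WT. *Gfap* made up most of the WT sum (5474 CPM on average), while *Aldh1l1* averaged 688 CPM in WT, 1082 CPM in vehicle and 1647 CPM with Igfbp2. Between the treatments, mesenchymal markers (8 genes, 6 tested, 4 called higher) summed to 14.6 to 17.9 CPM in vehicle and 36.8 to 47.6 CPM with Igfbp2, and neuronal markers (8 genes, 2 called lower) to 488 to 553 and 439 to 467 CPM. Microglial markers (8 genes, 2 tested) summed to 0.835 to 1.67 CPM in WT, 1.64 to 2.13 CPM in vehicle and 1.34 to 2.01 CPM with Igfbp2. Of the 2 tested, 1 was called higher in vehicle than in WT, and *C1qa* and *C1qb* were at 0 in every library. All 3 comparisons thus moved with some of these markers, whose part in the results below was not tested. In RNA from whole cultures, fewer cells of a type and less RNA per cell cannot be told apart.

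Promoter sequences are shown because several of these genes carry the classical ER stress response element (ERSE: CCAAT, any 9 bases, CCACG), which ATF6 binds, or its shorter form ERSE-II (ATTGG, any 1 base, CCACG). RefSeq promoters (GRCm38.p6, 250 bases before to 50 bases after the start) were found for 9 of the 10 genes, all but *Hyou1*. An ERSE on either strand stood in 4 of these 9 promoters, against 37 of 27025 genes with a promoter (0.137%), and an ERSE-II in 1 of 9, against 12 of 27025 (0.0444%). The element TGACGTGG of XBP1 and ATF6 and the ATF4 composite element TGATGNAAT were in 0 of 9, against 0.714% and 1.08% of all genes. The stretches with a match are given 5′ to 3′ on the strand of the gene, with the fixed letters of the element in capitals.
Hspa5: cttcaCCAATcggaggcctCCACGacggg
Hsp90b1: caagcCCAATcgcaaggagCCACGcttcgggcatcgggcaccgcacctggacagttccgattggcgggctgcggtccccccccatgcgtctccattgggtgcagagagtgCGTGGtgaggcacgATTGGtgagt
Calr: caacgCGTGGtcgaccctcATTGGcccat
Creld2: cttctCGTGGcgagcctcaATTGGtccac
Herpud1: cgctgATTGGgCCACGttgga
These lie at chr2:34772020-34772048 (plus strand), chr10:86705528-86705661 (minus), chr8:84847070-84847098 (minus), chr15:88819515-88819543 (plus) and chr8:94386372-94386392 (plus). The element of *Hspa5* falls 65 to 47 bases before the RefSeq start. The stretch of *Hspa5* overlaps an exon of a longer *Hspa5* transcript in GENCODE M21, and that of *Herpud1* lies in the gene model of *Gm15890*, outside its exons. *Hsp90b1* holds 2 matches, 1 on each strand, while *Xbp1*, *Dnajb9*, *Sdf2l1* and *Pdia4* hold none of the 4 elements in this window. For *Xbp1*, *Pdia4* and *Herpud1* the first bases after the RefSeq start were not found in a GENCODE M21 transcript of the gene. The RefSeq and GENCODE starts of these genes may therefore differ. For the other promoters of this set these bases were found. Of 77 other genes of the ER pathway, 59 had a promoter and 11 of these (18.6%) held at least 1 of the 4 elements, against 1.96% of all genes. A match is a description of these letters and was not tested as a binding site. The ERSE and ERSE-II were looked for because several of these genes carry them. Their shares beside all genes are therefore a description too and no test of enrichment.

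The levels of the 10 genes spanned a wide range. On the TPM scale, which divides by transcript length, *Calr*, the calcium-binding lectin chaperone calreticulin, was highest in each group, at 279.5 ± 68.2 in WT, 283 ± 23.8 in vehicle and 228 ± 39.4 in Igfbp2 libraries (SD, n = 4). In WT it ranked 192 of the 15706 genes tested. *Hspa5*, the luminal HSP70 known as BiP, followed at 119 ± 30.1 TPM in WT, *Hsp90b1*, the luminal HSP90 known as GRP94, at 93.5 ± 21.1 TPM, and *Pdia4*, a disulfide isomerase, at 60.7 ± 18.4 TPM. *Hyou1*, a large HSP70-like exchange factor of BiP, stood at 29.0 ± 2.93 TPM. The other 5 were within a narrow band in WT, from 14.2 ± 1.11 TPM for *Sdf2l1*, a component of the BiP chaperone complex, down to 8.01 ± 0.467 TPM for *Dnajb9*, a BiP co-chaperone. Neighbours in this order whose WT libraries overlapped were *Hspa5* and *Hsp90b1*, *Hsp90b1* and *Pdia4*, and each step from *Sdf2l1* to *Dnajb9*. The order was the same in vehicle libraries, and in Igfbp2 libraries only the overlapping pairs *Hspa5* with *Hsp90b1* and *Sdf2l1* with *Creld2* changed places.

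**Figure D1:**
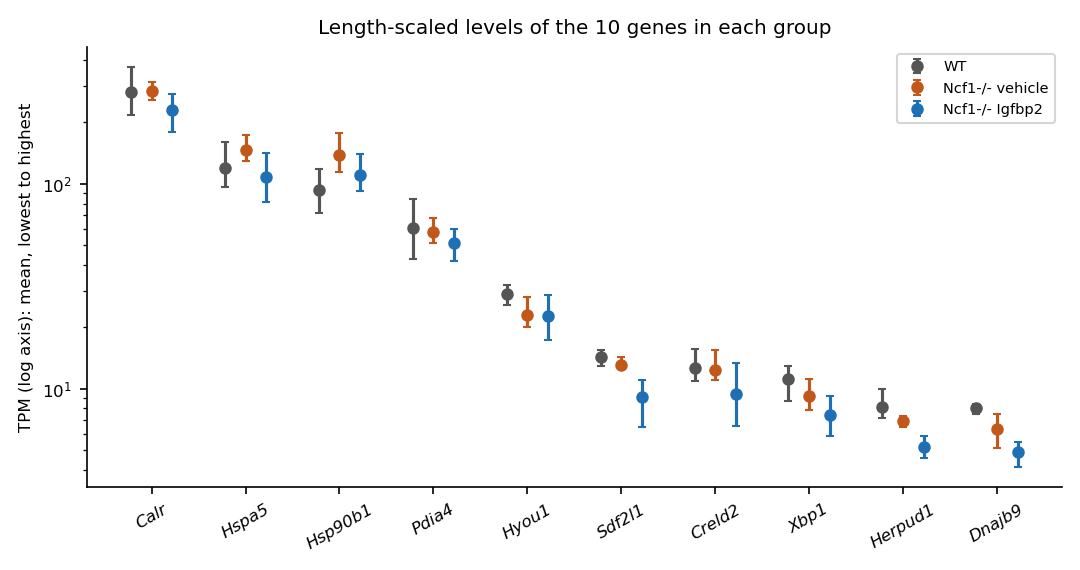
TPM (log axis) of the 10 genes in WT, vehicle and Igfbp2 *Ncf1*-/- libraries. Points are means and bars run from the lowest to the highest of 4 libraries, with *Calr* highest and *Dnajb9* lowest in each group.

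The first comparison, vehicle against WT, asks what differs in NSCs that lack *Ncf1*. On the scale of CPM (counts scaled to a common library size, with TMM factors that correct for library composition), 2 of the 10 genes were called higher in vehicle and 4 were called lower, at an edgeR adjusted p under 0.05. The background was high, since 57.2% of all genes tested were called, 28.9% higher and 28.2% lower. The share of the 10 genes called was thus near that of all genes. Their median log2 fold change was -0.14, against 0.02 over all genes tested.

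The 2 that rose were *Hsp90b1* and *Hspa5*. *Hsp90b1* (chr10:86690209-86705509) had 302, 307, 382 and 365 CPM in WT replicates 9 to 12, and 447, 462, 479 and 549 CPM in vehicle replicates 1 to 4. The groups did not overlap, and the gene was 1.43-fold higher in vehicle (log2 fold change 0.52 ± 0.10 SE, edgeR adjusted p = 0.000733). *Hspa5* (chr2:34771970-34777547) had 290.0, 280.3, 381 and 309 CPM in WT and 365, 365, 379.8 and 410.0 CPM in vehicle. WT replicate 11 was as high as the vehicle libraries, and the other 3 WT libraries lay below all of them. The call of *Hspa5* was marginal (log2 fold change 0.27 ± 0.11, edgeR adjusted p = 0.0431) and was lost when any 1 of 9 libraries was left out (all but Igfbp2 replicates 7 and 8 and WT replicate 11), with an edgeR adjusted p of up to 0.152. Without WT replicate 11 its log2 fold change was 0.38 (edgeR adjusted p = 0.00299).

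The 4 that fell, *Hyou1*, *Dnajb9*, *Xbp1* and *Herpud1*, are not a single kind of protein. *Hyou1* (chr9:44379490-44392369) had 158, 156, 154 and 162 CPM in WT and 117, 121, 119 and 131 CPM in vehicle, with every vehicle library below every WT library (log2 fold change -0.37 ± 0.07, edgeR adjusted p = 0.000572). *Dnajb9* (chr12:44205559-44210326) had 20.6, 18.4, 17.4 and 19.0 CPM in WT and 12.9, 13.3, 16.5 and 14.9 CPM in vehicle, again without overlap (log2 fold change -0.39 ± 0.10, edgeR adjusted p = 0.00363). *Hyou1*, *Dnajb9* and *Hsp90b1* were the 3 genes whose groups did not overlap, against 51.2% of all genes. These 3 calls held with each of the 12 libraries left out in turn.

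*Xbp1* (chr11:5520659-5525893), the transcription factor activated by IRE1, had 28.4, 23.4, 28.7 and 31.4 CPM in WT and 20.9, 20.7, 23.8 and 22.7 CPM in vehicle. Only the lowest WT library, replicate 10, fell within the vehicle range (log2 fold change -0.35 ± 0.10, edgeR adjusted p = 0.0104). Counts per gene do not separate its spliced and unspliced transcripts. *Herpud1* (chr8:94386438-94395377), an organiser of the degradation complex in the ER membrane, had 18.9, 16.8, 14.6 and 21.4 CPM in WT and 15.3, 14.6, 13.5 and 12.9 CPM in vehicle. WT replicate 11 again lay within the vehicle range (log2 fold change -0.35 ± 0.12, edgeR adjusted p = 0.0210).

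The other 4 genes were not called. *Calr* (chr8:84841850-84846934) had a mean of 614 ± 81.0 CPM in WT and 613 ± 14.3 CPM in vehicle, and *Pdia4* (chr6:47796141-47813430) of 191 ± 37.6 and 180.2 ± 6.18 CPM. In both, WT replicate 11 was the highest of the 8 libraries, at 729 CPM for *Calr* and 238 CPM for *Pdia4*. *Sdf2l1* (chr16:17130138-17132383) had a log2 fold change of -0.19 ± 0.12 (edgeR adjusted p = 0.183). *Creld2* (chr15:88819646-88826683), a secreted and luminal disulfide isomerase, had one of -0.10 ± 0.11 (edgeR adjusted p = 0.490).

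The scale bears on these calls. Scaling by library totals alone moved the median of all genes to 0.19 on the log2 scale, and the calls became 2 higher (*Hsp90b1* and *Hspa5*) and 0 lower, where *Hyou1* had a log2 fold change of -0.19 (edgeR adjusted p = 0.0779). Relative to the median of all genes, *Hyou1* was at -0.38 on both scales and *Hsp90b1* at 0.50 on both. On log2(TPM + 1) only *Hsp90b1* was called, at 0.56 (limma adjusted p = 0.0248), with *Hyou1* at -0.33 (limma adjusted p = 0.114).

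**Figure D2:**
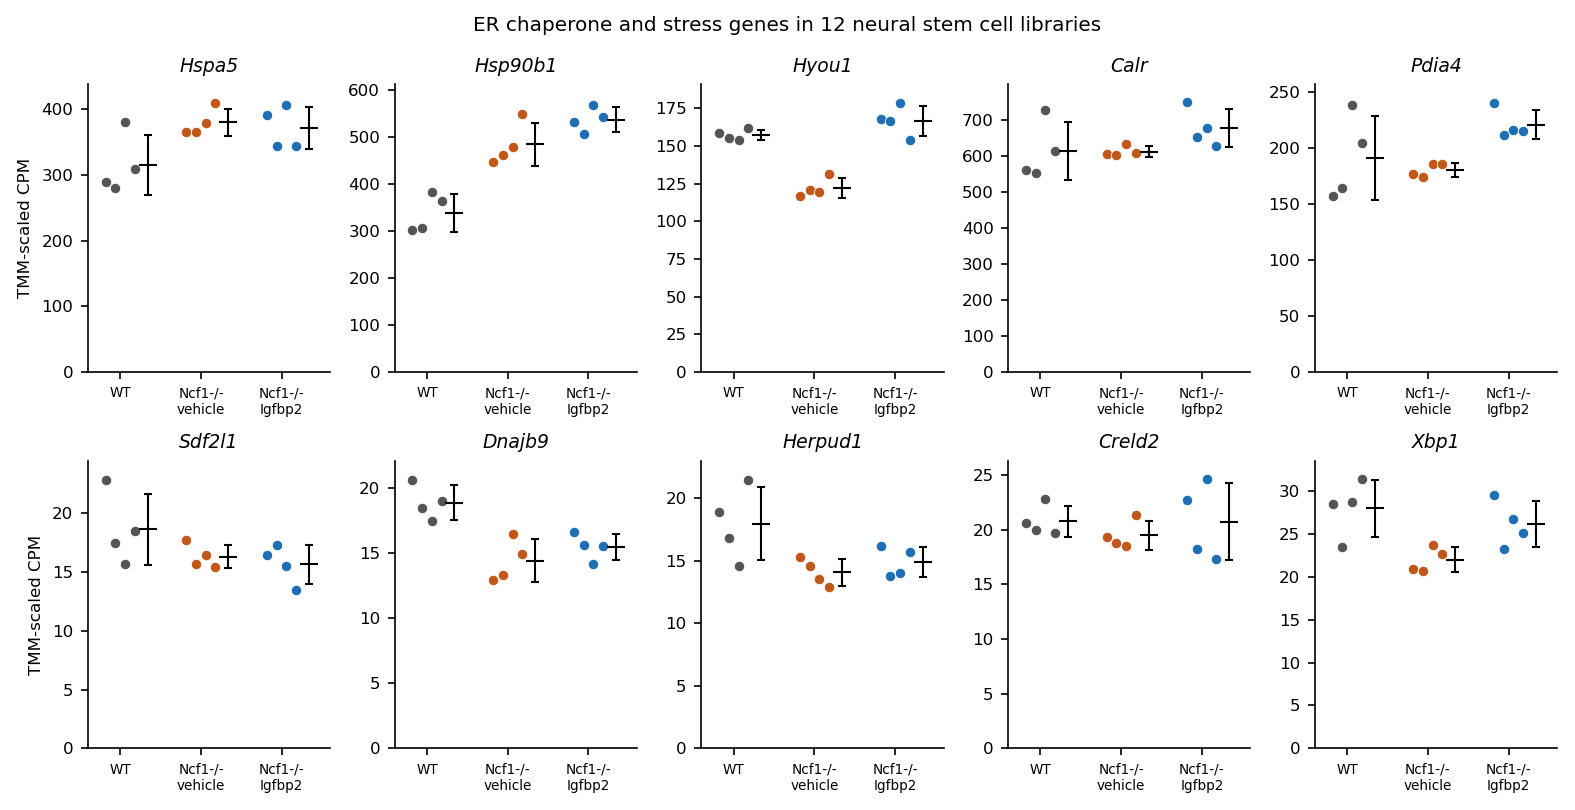
TMM-scaled CPM of the 10 genes in the 12 libraries, 1 point per culture, with the mean and SD of each group to its right and axes from 0. *Hyou1* is lower in all 4 vehicle libraries (117 to 131) than in all WT (154 to 162) and Igfbp2 libraries (154 to 179), while *Hsp90b1* is higher in all 8 *Ncf1*-/- libraries than in WT.

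The second comparison, Igfbp2 against vehicle, asks what the protein changed in *Ncf1*-/- NSCs. *Hyou1* was the single gene of the 10 that was called, and it was higher. Over all genes tested 25.0% were called, 14.2% higher and 10.7% lower. The log2 fold change was above 0 for 8 of the 10, with a median of 0.12 against 0.04 over all genes. This comparison and the first share the vehicle libraries, so that a low vehicle value adds to both.

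*Hyou1* had 168, 167, 179 and 154 CPM in Igfbp2 replicates 5 to 8, each above the 117 to 131 CPM of the vehicle libraries. It was 1.37-fold higher (log2 fold change 0.45 ± 0.07, edgeR adjusted p = 0.00143), and leaving out any 1 library left it called, between 0.37 and 0.51. *Pdia4* had 239.9, 212, 216 and 215 CPM with Igfbp2 and 176, 174, 186 and 185 CPM in vehicle. These 2 genes had groups that did not overlap, against 34.1% of all genes. *Pdia4* was not called (log2 fold change 0.29 ± 0.12, edgeR adjusted p = 0.0857). It was called in a fit of the 8 *Ncf1*-/- libraries alone, at 0.24 both without a block (edgeR adjusted p = 0.0111) and with the culture pairs that the study states as a block (edgeR adjusted p = 0.0219), and without WT replicate 11 (0.29, edgeR adjusted p = 0.0259). The count was 2 genes in each fit of these 8 libraries, so that the block itself did not move it.

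The remaining 8 genes were not called. *Xbp1* had 29.6, 23.2, 26.7 and 25.0 CPM with Igfbp2, of which 1 lay within the vehicle range (log2 fold change 0.25 ± 0.10, edgeR adjusted p = 0.0908). *Hsp90b1* had a log2 fold change of 0.15 and *Calr* of 0.14. *Hspa5* was at -0.03, with 344 to 407 CPM against 365 to 410.0 CPM in vehicle. The others lay between -0.06 (*Sdf2l1*) and 0.10 (*Dnajb9*).

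The direction in this comparison rests on the scale. Signal recognition particle RNA, 7SK and other structural RNAs (5 genes) took 62.1% to 72.3% of TPM in Igfbp2 libraries and 56.0% to 60.3% in vehicle libraries, which did not overlap (two-sided exact permutation p = 0.0286, the smallest that 4 against 4 allows). On log2(TPM + 1) the median of all genes was -0.30, and with library totals it was -0.23. *Hyou1* had 22.9 ± 3.49 TPM in vehicle and 22.5 ± 5.24 TPM in Igfbp2 libraries (SD, n = 4), a log2 fold change of -0.04 on log2(TPM + 1) (limma adjusted p = 0.852). Relative to the median of all genes it was at 0.25 on that scale, at 0.42 with library totals and at 0.41 with TMM factors. With Y-linked expression as a covariate *Hyou1* kept a log2 fold change of 0.40 but was not called (edgeR adjusted p = 0.350). Within groups this covariate varies mainly through WT replicate 12, as it is high in all vehicle and low in all Igfbp2 libraries. A call lost under it, here or below, therefore cannot separate Igfbp2 from sex. The calls among the 10 were 0 higher and 1 lower (*Sdf2l1*, -0.33) with library totals, and 0 higher and 2 lower (*Sdf2l1* and *Herpud1*) on log2(TPM + 1).

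The third comparison, Igfbp2 against WT, sets the treated *Ncf1*-/- cultures beside WT. *Hsp90b1* had 531, 506, 569 and 542 CPM with Igfbp2, all above the 302 to 382 CPM of WT, and was 1.58-fold higher (log2 fold change 0.66 ± 0.10, edgeR adjusted p = 9.34e-05). *Dnajb9* had 16.6, 15.6, 14.2 and 15.5 CPM, all below the 17.4 to 20.6 CPM of WT, and was lower (log2 fold change -0.29 ± 0.10, edgeR adjusted p = 0.0201). These were the 2 genes of the 10 that were called and the 2 whose groups did not overlap. Over all genes 62.4% were called, 31.6% higher and 30.8% lower, and 54.3% did not overlap, so that a smaller share of the 10 was called than of all genes. *Hyou1* had a log2 fold change of 0.08 ± 0.07 (edgeR adjusted p = 0.317).

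WT replicate 11 weighed on this comparison. Without it 7 of the 10 genes were called, *Hsp90b1*, *Hspa5* (0.35, edgeR adjusted p = 0.00481), *Pdia4* (0.33, edgeR adjusted p = 0.00880) and *Calr* (0.24, edgeR adjusted p = 0.0351) as higher, and *Dnajb9*, *Herpud1* (-0.35, edgeR adjusted p = 0.0107) and *Sdf2l1* (-0.32, edgeR adjusted p = 0.0241) as lower. Without WT replicate 10 it was 5, with *Xbp1*, *Herpud1* and *Sdf2l1* added as lower, and without WT replicate 9 it was 1, *Hsp90b1*. Leaving out vehicle replicate 3 or Igfbp2 replicate 5 added *Herpud1*, Igfbp2 replicate 6 *Sdf2l1* and Igfbp2 replicate 8 *Hspa5*. Without WT replicate 12 the count was 2, as with all libraries. On log2(TPM + 1), where the median of all genes was -0.25, the calls were 0 higher and 4 lower (*Xbp1*, *Dnajb9*, *Herpud1* and *Sdf2l1*), and *Hsp90b1* was at 0.24 (limma adjusted p = 0.291).

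**Figure D3:**
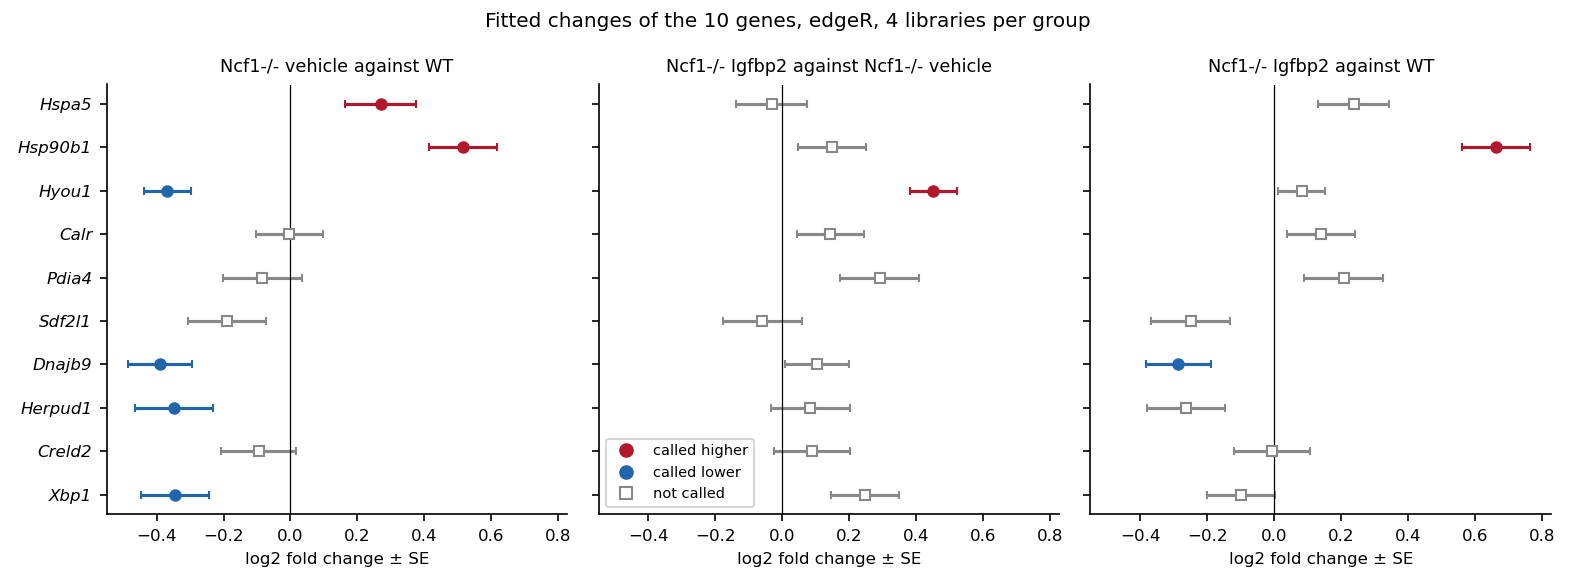
Fitted log2 fold changes of the 10 genes in the 3 comparisons, with bars of 1 SE (edgeR, TMM factors, 4 libraries per group). Filled circles passed an adjusted p of 0.05, 6 genes in the first panel, *Hyou1* in the second and *Hsp90b1* and *Dnajb9* in the third.

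Within the groups the 10 genes did not vary as a block. After the group means were taken off, the correlation of log2 CPM over the 12 libraries, which share depth and scaling, ranged from -0.62 to 0.92 over the 45 pairs of genes, with a median of 0.30 and 29 pairs above 0. The abundant chaperones went together, with *Calr* and *Pdia4* at 0.92, *Hspa5* and *Calr* at 0.87, and *Hspa5* with *Pdia4* and with *Hsp90b1* at 0.81. *Sdf2l1* and *Herpud1* went the other way from them, as in *Hsp90b1* with *Sdf2l1* (-0.62) and *Hspa5* with *Herpud1* (-0.49). WT replicate 10 was below the WT mean in all 10 genes and Igfbp2 replicate 5 above its group mean in 9 of 10. The summed CPM of the 10 genes was 1721 ± 198 in WT, 1866 ± 81.4 in vehicle and 2067 ± 112 in Igfbp2 libraries (SD, n = 4). Two-sided exact permutation p-values were 0.229 for vehicle against WT and 0.0857 for each comparison of Igfbp2. As a share of all counts, without TMM factors, the order differed. That share was 0.169% in WT, 0.207% in vehicle and 0.190% in Igfbp2 libraries.

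The genes outside the 10 whose log2 CPM followed their mean standardized profile most closely over the 12 libraries were *2310047M10Rik* (Pearson r = 0.89), *Vash2* (0.86), *Thap11* (0.84), *Prune* (0.84) and *Scamp3* (0.83), which is a description of libraries that share depth and scaling. In the first of these, mean CPM was 15.2 in WT, 11.9 in vehicle and 15.3 in Igfbp2 libraries.

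A list of 77 further genes of the ER pathway, ordered by role, was set beside the 10, and 76 of them passed the filter (*Derl3* did not). In vehicle against WT, 22 were called higher and 15 lower (48.7%, against 57.2% of all genes). In Igfbp2 against vehicle, 18 were called higher and 1 lower (25.0%, as over all genes), and 66 of 76 had a log2 fold change above 0, with a median of 0.19. In Igfbp2 against WT, 46 were called higher and 10 lower (73.7%, against 62.4%), with a median of 0.32. These splits moved with the scale, to 36 higher and 8 lower, 3 and 11, and 37 and 11 in the 3 comparisons with library totals, and to 19 and 5, 1 and 16, and 11 and 18 on log2(TPM + 1). The 19 calls between the treatments became 7 when vehicle replicate 1 or vehicle replicate 2 was left out, 8 without Igfbp2 replicate 6, 10 to 12 without each of 5 other libraries (vehicle 3, Igfbp2 5, 7 and 8 and WT 10), and 1 with Y-linked expression as a covariate.

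**Figure D4:**
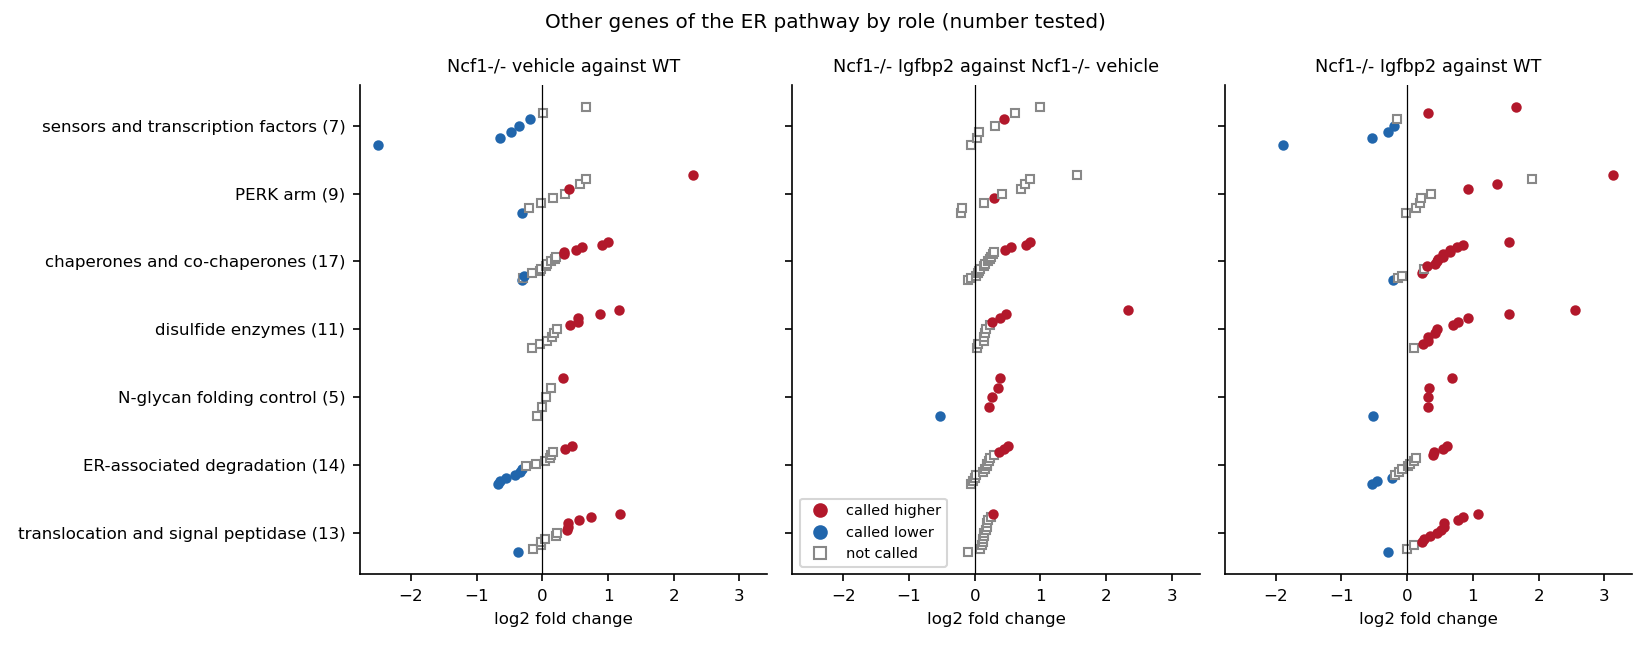
Log2 fold changes of 76 further ER pathway genes by role in the 3 comparisons (edgeR, TMM factors), 1 point per gene. Filled circles passed an adjusted p of 0.05 and open squares did not. Sensors and transcription factors hold 5 of 7 called lower and 0 called higher in the first panel, and disulfide enzymes 10 of 11 called higher in the third. Over all genes tested, 28.2% were called lower in the first comparison and 31.6% higher in the third.

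Of the 7 sensors and membrane-bound transcription factors, 5 were called lower in vehicle than in WT and 0 higher (71.4% called, against 57.2% of all genes). *Atf6*, the sensor whose released fragment binds the ERSE, had 52.5, 58.0, 55.1 and 55.3 CPM in WT, 31.7, 34.7, 34.3 and 40.5 CPM in vehicle and 45.0, 49.4, 49.6 and 48.6 CPM with Igfbp2. The 3 groups did not overlap, with log2 fold changes of -0.65 ± 0.08 in vehicle against WT (edgeR adjusted p = 1.66e-05), 0.45 ± 0.08 in Igfbp2 against vehicle (edgeR adjusted p = 0.00265) and -0.20 ± 0.08 in Igfbp2 against WT (edgeR adjusted p = 0.0434). The second of these was not called with library totals (0.17, edgeR adjusted p = 0.159), with Y-linked expression as a covariate (0.45, edgeR adjusted p = 0.353) or on log2(TPM + 1) (-0.02). The third was no longer called without vehicle replicate 2, Igfbp2 replicate 8 or WT replicate 11 (edgeR adjusted p between 0.0658 and 0.0679). *Ern1*, which encodes IRE1, was called lower than WT in vehicle (log2 fold change -0.47, edgeR adjusted p = 0.00157) and with Igfbp2 (-0.53, edgeR adjusted p = 0.000639), and was at -0.06 between the treatments. *Creb3l2*, a factor for secretory genes, had 48.3 to 160 CPM in WT, 18.7 to 24.8 CPM in vehicle and 27.2 to 38.9 CPM with Igfbp2, and had the largest fall of the named genes in both comparisons with WT (-2.49, edgeR adjusted p = 1.18e-05, and -1.88, edgeR adjusted p = 9.21e-05). The lowest WT library was replicate 11. *Creb3l1*, its relative, was called higher with Igfbp2 than in WT (1.66, edgeR adjusted p = 0.00212, and 2.34 without WT replicate 12), but not with Y-linked expression as a covariate (0.62, edgeR adjusted p = 0.0538).

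In the PERK arm 2 of 9 genes were called higher and 1 lower in vehicle against WT (33.3%, against 57.2% of all genes). The counts were 1 higher and 0 lower in Igfbp2 against vehicle (11.1%, against 25.0% of all genes). They were 3 higher and 0 lower in Igfbp2 against WT (33.3%, against 62.4%). In Igfbp2 against vehicle the groups of 6 of the 9 genes did not overlap, against 34.1% of all genes. All 6 were higher with Igfbp2 (*Trib3*, *Atf5*, *Nupr1*, *Chac1*, *Ddit3* and *Ppp1r15b*), and of these only *Ppp1r15b* was called. Mean CPM went from 5.11 in vehicle to 15.0 with Igfbp2 for *Trib3* (log2 fold change 1.55, edgeR adjusted p = 0.165). For *Atf5* it went from 74.4 to 126 (0.76, edgeR adjusted p = 0.0796). Over the 9 genes, 7 had a log2 fold change above 0 and 2 below. Mean TPM of *Ddit3* and *Ppp1r15b* was lower with Igfbp2 than in vehicle. *Eif2ak3*, which encodes PERK, had log2 fold changes of 0.02, 0.31 and 0.32 in the 3 comparisons, and only the last, Igfbp2 against WT, was called (edgeR adjusted p = 0.0394). That call was lost without any 1 of 9 libraries (all but vehicle replicates 1, 2 and 4), while *Eif2ak3* was called in Igfbp2 against vehicle without vehicle replicate 4 (0.46, edgeR adjusted p = 0.00903). *Atf4*, the factor that PERK raises at the level of translation, had 70.5 to 87.3 CPM in WT and 102 to 106 CPM in vehicle, and was called higher there (0.40 ± 0.09, edgeR adjusted p = 0.00192). It was at -0.19 between the treatments (edgeR adjusted p = 0.130) and at 0.21 in Igfbp2 against WT (edgeR adjusted p = 0.0604), and these passed without Igfbp2 replicate 7 (-0.30) and without Igfbp2 replicate 8 (0.26), respectively. *Ddit3*, which encodes CHOP, was called in none of the 3, at -0.21, 0.41 and 0.20. WT replicate 12 had 25.7 CPM of *Ddit3*, against 7.50 to 9.49 in the other WT libraries and 13.2 to 16.4 with Igfbp2. It was also the highest WT library for *Trib3* (15.3 CPM, against 0.378 to 0.774) and *Atf5* (133 CPM, against 42.6 to 46.8). The same held for *Nupr1*, *Chac1*, *Ppp1r15a* and *Atf4* of this arm, but not for *Atf3* or *Ppp1r15b*. Without that library *Ddit3* was called higher in all 3 comparisons, at 0.33 in vehicle against WT (edgeR adjusted p = 0.0362), 0.37 in Igfbp2 against vehicle (edgeR adjusted p = 0.0286) and 0.70 in Igfbp2 against WT (edgeR adjusted p = 0.000362).

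Of 17 chaperones and co-chaperones, 6 were called higher and 2 lower in vehicle against WT, 4 and 0 in Igfbp2 against vehicle, and 13 and 1 in Igfbp2 against WT (47.1%, 23.5% and 82.4% called, against 57.2%, 25.0% and 62.4% of all genes). *Serpinh1*, the collagen chaperone HSP47, had 130.3 to 264 CPM in WT, 375 to 412 CPM in vehicle and 526 to 642 CPM with Igfbp2, and was called higher in vehicle than in WT (0.997 ± 0.19, edgeR adjusted p = 0.000519). *Sil1*, an exchange factor of BiP like *Hyou1*, had 15.3 to 20.0 CPM in vehicle and 27.5 to 37.7 CPM with Igfbp2 (0.84 ± 0.18, edgeR adjusted p = 0.00579). *Creld1*, the membrane relative of *Creld2*, had 36.1 to 40.5 CPM in vehicle and 60.6 to 67.8 CPM with Igfbp2 (0.78 ± 0.15, edgeR adjusted p = 0.00382). Neither held with Y-linked expression as a covariate, with *Sil1* at 0.23 (edgeR adjusted p = 0.815) and *Creld1* at 0.22 (edgeR adjusted p = 0.759), or on log2(TPM + 1), at 0.31 (limma adjusted p = 0.178) and 0.23 (limma adjusted p = 0.343). *Creld2* itself was at 0.09 in that comparison.

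The disulfide enzymes, to which *Pdia4* is related, were called higher in 5 of 11 in vehicle against WT, 4 of 11 in Igfbp2 against vehicle and 10 of 11 in Igfbp2 against WT, and lower in 0 of 11 each time. Over all genes, 28.9%, 14.2% and 31.6% were called higher in these comparisons. These counts are with TMM factors. On log2(TPM + 1) the whole list of ER pathway genes had 11 called higher and 18 lower in Igfbp2 against WT. *Pdia5*, an isomerase, had 5.94 ± 0.46 CPM (SD, n = 4) in WT, 10.9 to 15.8 CPM in vehicle and 15.5 to 18.8 CPM with Igfbp2, with log2 fold changes over WT of 1.17 ± 0.12 (edgeR adjusted p = 4.85e-06) and 1.55 ± 0.12 (edgeR adjusted p = 5.52e-07). *Ero1l*, the oxidase that reoxidizes the isomerases, had 38.6, 41.0, 55.3 and 65.8 CPM in vehicle and 220.0, 194, 297 and 301 CPM with Igfbp2, the largest rise of the named genes in this comparison (2.33 ± 0.55, edgeR adjusted p = 0.00959). In WT it had 15.6 to 23.4 CPM in 3 libraries and 116 CPM in replicate 12, and it was called higher with Igfbp2 than in WT (2.56 ± 0.55, edgeR adjusted p = 0.00130, and 3.68 without WT replicate 12). With Y-linked expression as a covariate the difference between the treatments was -0.01, in a fit whose covariate leans on that same WT replicate 12. The libraries low in Y-linked genes were those with the most *Ero1l*, in WT as in *Ncf1*-/-. Whether sex had a part in this was not tested.

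The genes of N-glycan folding control, which act on the sugars of unfinished chains, were called higher in 4 of 5 and lower in 1 of 5 in both comparisons of Igfbp2 (against 25.0% and 62.4% of all genes called). The one that fell was *Uggt2*, a sensor of misfolded glycoproteins, from 13.7 to 15.6 CPM in vehicle to 8.09 to 10.8 CPM with Igfbp2 (-0.52 ± 0.10, edgeR adjusted p = 0.00460, and -0.39, not called, with the Y-linked covariate). Of 14 genes of ER-associated degradation, the route of *Herpud1*, 2 were called higher and 6 lower in vehicle against WT, 3 and 0 in Igfbp2 against vehicle, and 4 and 3 in Igfbp2 against WT. The shares called were 57.1%, 21.4% and 50.0%, against 57.2%, 25.0% and 62.4% of all genes. *Os9*, a lectin of that route, had 162 to 186 CPM in WT and 96.3 to 118 CPM in vehicle (-0.67 ± 0.09, edgeR adjusted p = 3.06e-05). It was also lower with Igfbp2 than in WT (-0.455, edgeR adjusted p = 0.000641). *Syvn1*, its ubiquitin ligase HRD1, had 51.9 to 62.0 CPM in WT and 34.1 to 42.7 CPM with Igfbp2 (-0.54 ± 0.08, edgeR adjusted p = 9.19e-05). In vehicle *Syvn1* was as low, at 36.9 to 38.5 CPM (-0.555 against WT, edgeR adjusted p = 7.16e-05), and it was at 0.02 between the treatments. Of 13 genes of translocation and signal peptidase, 6 were called higher and 1 lower in vehicle against WT, 1 and 0 between the treatments, and 10 and 1 in Igfbp2 against WT. These shares were 53.8%, 7.69% and 84.6%, against the same 57.2%, 25.0% and 62.4% of all genes. *Sec11c*, a catalytic subunit of signal peptidase, had 14.9 to 15.9 CPM in WT and 32.2 to 37.3 CPM in vehicle (1.18 ± 0.07, edgeR adjusted p = 7.27e-08).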

How the data were processed

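NSC cultures of 3 groups, with 4 libraries each, were profiled by rRNA-depleted RNA-seq. The authors mapped reads with Bowtie2 (GRCm38 in the processing notes of the submitters, annotation release not given in the sources used here) and ran RSEM. The deposited expected counts per gene, not normalized, are not whole in 15.9% of cases and were rounded. The deposited TPM, scaled per library by RSEM, gave levels and alternatives. The FPKM that the authors deposited were not used, nor was the merged table, a score that equals TPM times the number of transcripts in 257083 of 257083 values above 0 (within 1%), except for its symbols. Genes were kept by filterByExpr (15706 genes, 99.91% of counts), scaled by TMM and fitted with edgeR 4.0.16 (quasi-likelihood, a mean per group, 12 libraries, two-sided, Benjamini-Hochberg adjustment over all genes) in R 4.3.3, and called at an adjusted p under 0.05. The study's own test ran on TPM over the 3 groups. Alternatives used limma 3.58.1 on log2(TPM + 1) and log2(TPM + 0.1), DESeq2 1.42.0 and the settings listed in the closing section. The fit was tested on simulated data.

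Members and lists were chosen with earlier results of these data known. Named beyond the 10 genes were *Atf6*, *Ern1*, *Eif2ak3*, *Atf4* and *Ddit3*, and in each comparison up to 3 called ER pathway genes that rose most and up to 3 that fell most, with at least 5 CPM on average and no overlap between groups. The 5 genes most like the members were named too. *Derl3*, *Gm15890*, *Gfap*, *Aldh1l1*, *C1qa* and *C1qb* were named after their values were seen. So were *Trib3*, *Atf5*, *Nupr1*, *Chac1*, *Ppp1r15a*, *Atf3* and *Ppp1r15b*. Coordinates are of GRCm38 (GENCODE M21). The pairs that the study states correlated, with group means taken off, between -0.0673 and 0.0328 (4 pairs), against -0.248 to 0.257 for other vehicle and Igfbp2 libraries (12). No 2 replicates were alike within sampling noise (lowest chi-square per degree of freedom 4.63). As each library is 1 culture, p-values measure the spread between cultures, and counting error is covered by that spread. The spread of each gene was estimated over all 3 groups, so that WT libraries also enter the p-values of Igfbp2 against vehicle. For *Ero1l* in that comparison, the edgeR adjusted p was 0.00959 in this fit and 6.6e-06 with only the 2 groups compared.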

Additional observations from a re-analysis of the deposited data

Results flagged for a closer look

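In 4 of 78 groups of 4 libraries (26 named genes in 3 groups), 1 library lay far from the other 3 by the Dixon test at 95%. Chance flags about 1 group in 20. *Pdia4* had 239.9 CPM in Igfbp2 replicate 5, against 212 to 216 CPM in the other Igfbp2 libraries. *Sec11c* had 34.7 CPM in the same library, against 31.5 to 32.0 CPM. *Ddit3* had 25.7 CPM in WT replicate 12, against 7.50 to 9.49 CPM in the other WT libraries. *Ero1l* had 116 CPM (116.0) in WT replicate 12, against 15.6 to 23.4 CPM.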

How the results depend on the processing

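Per library, 229 to 25418 counts lay behind each value of the 10 genes. Of their alternative values, 174 of 230 in vehicle against WT, 197 of 240 in Igfbp2 against vehicle and 176 of 230 in Igfbp2 against WT kept direction and side of the threshold. The 6, 1 and 2 calls among the 10 became 2, 1 and 4 with library totals, 1, 2 and 4 by limma on log2(TPM + 1) and on log2(TPM + 0.1), 0, 0 and 3 by the test that the study ran on TPM, 3, 1 and 1 at an adjusted p under 0.01, and 0 in each at a log2 fold change of at least 1. Igfbp2 against vehicle had 2 with only the 2 groups compared, 2 with the replicate block and 0 with the Y-linked covariate. Igfbp2 against WT had 1 without a filter and 4 at a mean of at least 5 CPM. Leaving out 1 library gave 1 to 2 and 1 to 7 in these comparisons. Of the 76 other ER pathway genes, the 37, 19 and 56 calls became 24, 17 and 29 on log2(TPM + 1), 24, 18 and 29 on log2(TPM + 0.1), 14, 4 and 13 by the test of the study, and 4, 1 and 8 at a log2 fold change of at least 1. Igfbp2 against vehicle had 12 without a filter, 11 at a mean of at least 5 CPM, 7 at an adjusted p under 0.01, 1 with the Y-linked covariate and 7 to 22 with 1 library left out, and Igfbp2 against WT had 33 with the Y-linked covariate. The fit with the replicate block holds only the 8 *Ncf1*-/- libraries. It called *Pdia4* (0.24), *Atf4* (-0.25) and *Ddit3* (0.36), as did the fit of these libraries without the block (0.24, -0.24 and 0.36), and the block changed no call among the 10 genes between these fits.

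Directions turned mostly where the scale did. In Igfbp2 against vehicle, log2 fold changes on log2(TPM + 1), on log2(TPM + 0.1) and by the test of the study were -0.33, -0.33 and -0.32 for *Hsp90b1*, -0.27, -0.30 and -0.26 for *Xbp1*, -0.32, -0.37 and -0.32 for *Dnajb9*, and -0.36, -0.42 and -0.36 for *Herpud1*. They were -0.33, -0.33 and -0.31 for *Calr*, -0.19, -0.19 and -0.18 for *Pdia4*, -0.37, -0.41 and -0.35 for *Creld2*, and -0.042, -0.044 and -0.026 for *Hyou1*. For *Atf6* they were -0.016, -0.021 and -0.014, for *Eif2ak3* -0.17, -0.19 and -0.17, and for *Ddit3* -0.12, -0.13 and -0.12. In Igfbp2 against WT they were -0.15, -0.15 and -0.15 for *Hspa5*, -0.28, -0.28 and -0.29 for *Calr*, -0.20, -0.20 and -0.24 for *Pdia4*, and -0.37, -0.39 and -0.35 for *Hyou1*. There *Eif2ak3* was at -0.12, -0.14 and -0.10, *Atf4* at -0.22, -0.23 and -0.19, and *Ddit3* at -0.13, -0.13 and -0.31. In vehicle against WT, *Calr* (-0.003 with TMM factors) was at 0.045, 0.045 and 0.018, and *Ddit3* at 0.003 on log2(TPM + 0.1).

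With library totals, Igfbp2 against vehicle gave -0.12 for *Hsp90b1*, -0.024 for *Xbp1*, -0.17 for *Dnajb9*, -0.19 for *Herpud1*, -0.13 for *Calr* and -0.18 for *Creld2*, and Igfbp2 against WT -0.007 for *Hyou1*. Vehicle against WT gave 0.17 for *Calr*, 0.091 for *Pdia4* and 0.082 for *Creld2*. *Calr* was also at 0.013 without a filter, 0.009 at a mean of at least 5 CPM and 0.026 with only the 2 groups, and *Creld2* in Igfbp2 against WT at 0.018 without a filter. The Y-linked covariate gave 0.34 for *Ddit3* in vehicle against WT, 0.01 for *Hspa5*, -0.24 for *Herpud1*, 0.047 for *Ern1*, -1.01 for *Ddit3* and -0.008 for *Ero1l* between the treatments, and 0.06 for *Creld2* and -0.67 for *Ddit3* in Igfbp2 against WT. With 1 library left out, values that crossed 0 ranged in vehicle against WT from -0.071 to 0.091 for *Calr*, -0.17 to 0.042 for *Pdia4*, -0.41 to 0.33 for *Ddit3* and -0.16 to 0.10 for *Eif2ak3*. They ranged from -0.052 to 0.15 for *Creld2* and -0.12 to 0.024 for *Hspa5* between the treatments, and from -0.17 to 0.069 for *Creld2*, -0.024 to 0.12 for *Hyou1* and -0.045 to 0.70 for *Ddit3* in Igfbp2 against WT. Taking off the median of all genes did not undo each turn in Igfbp2 against vehicle. Relative to it, *Hsp90b1* was at 0.11 with TMM factors and at -0.03 on log2(TPM + 1). *Dnajb9*, *Herpud1*, *Calr* and *Creld2* changed sign in the same way, and the other members kept theirs. Why directions turned was not tested.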
